A study of Mus musculus with 6 samples.

Results

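Liver X receptors, LXRα (*Nr1h3*) and LXRβ (*Nr1h2*), and 8 of their targets in cholesterol efflux and lipid handling were followed in bone marrow-derived macrophages (BMDMs) that had been cultured with neutrophils from injured spinal cord. The 10 genes, *Nr1h2*, *Nr1h3*, *Abca1*, *Abcg1*, *Apoe*, *Apoc2*, *Lpl*, *Mylip*, *Lpcat3* and *Ch25h*, were taken by symbol from a table of 55335 genes, and all 10 were found in it once. Marrow cells labelled WT had been grown for 7 days with 25 ng/ml M-CSF, and the macrophages were then kept for 24 h with neutrophils that magnetic sorting had recovered from the spinal cord lesion of *Cd177* WT or *Cd177* KO mice at 3 dpi. Per the study's methods all animals were male, the WT mice were adult C57BL/6 and the *Cd177* KO mice were purchased, with no strain given for them. The macrophages of both groups carried the same WT genotype, so that only the neutrophils differed by design. After co-culture the Ly6G- macrophages were sorted by flow cytometry and sequenced as 3 libraries per group, named WT and KO here after the neutrophils. Nothing in the labels says that these libraries came from separate cultures or animals, so the p-values measure the spread between libraries, which may be technical. There was no group of macrophages without neutrophils, and LXR activity, protein and cholesterol were not among the measurements used here.

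LXRα and LXRβ are nuclear receptors that bind DNA as heterodimers with a retinoid X receptor and are switched on by oxysterols, oxidised forms of cholesterol. In macrophages they raise the genes that move cholesterol out of the cell, that shuttle lipoproteins, that remove lipoprotein receptors and that remodel membrane phospholipids, which is best known from foam cells and from macrophages that clear cell debris or myelin. Without ligand the same receptors hold corepressors at their targets, and several of these targets are also controlled by other nuclear receptors and by inflammatory signals.

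The LXR response element is a direct repeat of a hexamer with 4 bases between its copies. The windows of 250 bases before to 50 bases after the annotated starts (RefSeq, mouse build GRCm38.p6) were at hand for 8 of the 10 genes, 11 windows in all; *Abcg1* and *Lpl* were without one. A pair of NGGTNA hexamers in the same orientation with any 4 bases between them, searched on both strands, was found in 1 of the 8 genes, *Abca1*, from 67 to 52 bases before the start on the strand opposite to the gene. In the reading direction of the element it was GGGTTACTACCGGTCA. Of all 32851 windows in the same annotation, 236 (0.718%) held such a pair. The shorter element GGTNA, on either strand, was in 81.4% of all windows and so carries little information by itself. The core of an interferon-stimulated response element, GAAA, any 2 bases and GAAA again, was in 3.44% of all windows and in 0 of these 8 genes. A match describes letters in a window of 300 bases and no binding was measured. The printed windows are that of *Abca1* (chr4:53159846-53160145, minus strand) with the repeat, that of *Apoc2* (chr7:19677892-19678191, minus strand), the gene with the largest fall, and that of *Mylip* (chr13:45389492-45389791, plus strand), a gene that also fell and had no such element. They run 5′ to 3′ on the gene's strand, and capitals mark the GGTNA elements on either strand; the last 2 capital stretches of *Abca1* form the repeat.
*Abca1*: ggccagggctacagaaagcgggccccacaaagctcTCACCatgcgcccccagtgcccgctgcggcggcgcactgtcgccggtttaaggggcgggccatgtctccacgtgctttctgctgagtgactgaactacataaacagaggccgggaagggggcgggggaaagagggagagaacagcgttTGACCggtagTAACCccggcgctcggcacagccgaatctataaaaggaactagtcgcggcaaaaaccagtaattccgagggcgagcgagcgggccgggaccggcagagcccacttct
*Apoc2*: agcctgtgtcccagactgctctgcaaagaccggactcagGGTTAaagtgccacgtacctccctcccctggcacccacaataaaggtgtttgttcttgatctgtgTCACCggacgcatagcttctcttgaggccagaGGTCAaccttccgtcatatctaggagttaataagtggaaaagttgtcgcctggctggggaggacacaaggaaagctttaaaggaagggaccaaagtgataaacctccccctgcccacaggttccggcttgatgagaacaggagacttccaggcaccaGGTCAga
*Mylip*: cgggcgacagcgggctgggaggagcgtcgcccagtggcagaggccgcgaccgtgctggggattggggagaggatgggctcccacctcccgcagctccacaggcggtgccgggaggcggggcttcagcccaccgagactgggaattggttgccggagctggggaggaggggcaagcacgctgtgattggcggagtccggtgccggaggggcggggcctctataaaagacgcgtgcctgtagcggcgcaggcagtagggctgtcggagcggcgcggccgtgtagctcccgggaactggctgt

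Expression was given as FPKM, a fragment count scaled for transcript length and library size, which allows levels to be set side by side between genes. Differences were tested with limma on log2(FPKM + 0.5) across the 13367 genes that averaged 0.5 FPKM or more, and p-values were adjusted by Benjamini-Hochberg over all of them. A gene was called higher or lower in KO at an adjusted p-value under 0.05, and log2 fold changes are KO minus WT on this scale, which understates the change of low genes. All 10 genes passed the filter. Over all tested genes 27.1% were called higher and 10.5% were called lower in KO, and the median log2 fold change of all tested genes was 0.19. Of the 10 LXR genes, 1 was higher (*Lpl*), 4 were lower (*Abca1*, *Abcg1*, *Apoc2* and *Mylip*) and 5 did not pass (*Nr1h2*, *Nr1h3*, *Apoe*, *Lpcat3* and *Ch25h*), with a median log2 fold change of -0.39. The WT and KO libraries did not overlap in 6 of the 10, against 51.9% of all tested genes, so the lack of overlap by itself was close to the share in the table. At the threshold of the study, a fold above 2 with an unadjusted p-value under 0.05, 1 was higher, against 6.68% of all genes, and 3 were lower (*Abca1*, *Abcg1* and *Apoc2*), against 4.43%.

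**Figure D1:**
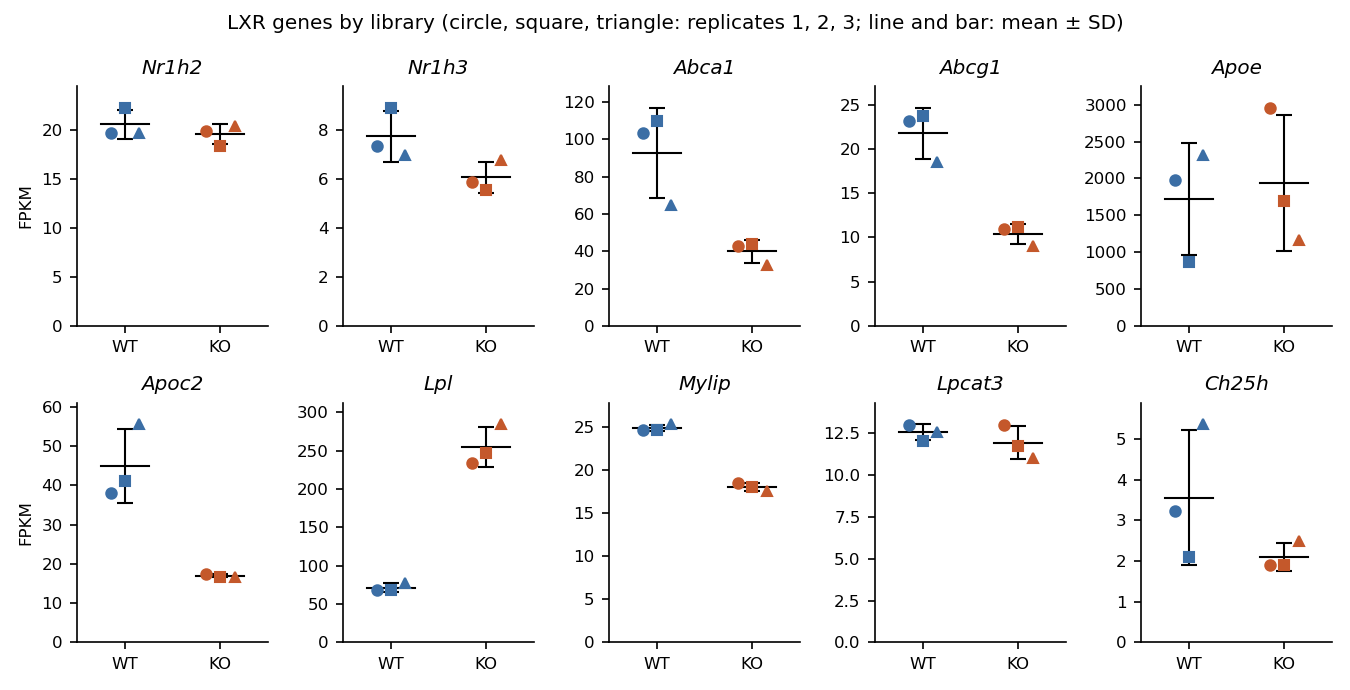
FPKM of the 10 LXR genes (vertical axes from 0, one scale per gene) in the 3 WT and the 3 KO libraries; circles, squares and triangles are replicates 1, 2 and 3, the line is the mean and the bar the SD. The KO points of *Abca1*, *Abcg1*, *Apoc2*, *Mylip* and *Nr1h3* lie below all WT points, those of *Lpl* lie above them at 233.8 to 284.3 FPKM, and the points of *Apoe* are spread from 864.1 to 2959 FPKM with both groups mixed.

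The receptors themselves were expressed in both groups. *Nr1h2* (ENSMUSG00000060601, chr7:44549616-44553951, minus strand), the LXR form found in most tissues, had 19.7, 22.2 and 19.7 FPKM in WT replicates 1 to 3 and 19.9, 18.4 and 20.3 FPKM in KO. The groups overlapped, with means of 20.5 ± 1.46 and 19.5 ± 1.03 FPKM (SD, n = 3 each). The log2 fold change was -0.07 with a 95% interval from -0.28 to 0.14 (adjusted p = 0.572 from limma). *Nr1h3* (ENSMUSG00000002108, chr2:91184061-91202834, minus strand), the form enriched in liver, adipose tissue and macrophages, had 7.33, 8.90 and 6.98 FPKM in WT and 5.89, 5.53 and 6.77 FPKM in KO. All KO libraries lay below all WT libraries, but the highest KO library, at 6.77 FPKM, came close to the lowest WT library, at 6.98 FPKM. Its log2 fold change of -0.33, with a 95% interval from -0.62 to -0.03, missed the threshold (adjusted p = 0.0836 from limma). It passed in 5 of the 18 other ways of fitting the data, among them median-of-ratios scaling with -0.53 (adjusted p = 0.0185) and the fit without WT replicate 3 with -0.39 (adjusted p = 0.0484), so the call for this receptor depends on the processing. On the FPKM scale *Nr1h3* stood at 0.372, 0.401 and 0.355 of *Nr1h2* in the WT libraries and at 0.296, 0.301 and 0.333 in the KO libraries. This ratio, which is free of any scaling between libraries, did not overlap between the groups, with a mean log2 difference of -0.28 and p = 0.1 in an exact two-sided permutation test, the smallest value that 3 libraries against 3 can give (0.133 after adjustment over the 4 ratios tested).

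Both cholesterol exporters were lower in KO. *Abca1* (ENSMUSG00000015243, chr4:53030787-53159895, minus strand), the transporter that loads cholesterol and phospholipid onto lipid-poor apolipoproteins, had 103, 110 and 64.9 FPKM in the WT libraries and 43.1, 43.9 and 32.7 FPKM in the KO libraries. The KO libraries all lay below the WT libraries, with means of 92.6 ± 24.2 and 39.9 ± 6.25 FPKM, 2.32-fold higher in WT. The log2 fold change was -1.18, SE 0.22 (95% interval from -1.71 to -0.66, adjusted p = 0.00635 from limma). *Abcg1* (ENSMUSG00000024030, chr17:31057675-31117988, plus strand), which passes cholesterol on to formed HDL particles, had 23.1, 23.8 and 18.5 FPKM in WT and 10.9, 11.2 and 9.04 FPKM in KO. Again all KO libraries lay below all WT libraries, with means of 21.8 ± 2.87 and 10.4 ± 1.18 FPKM and a log2 fold change of -1.03, SE 0.13 (95% interval from -1.35 to -0.72, adjusted p = 0.00131 from limma). Within each library *Abca1* was present at 4.46, 4.62 and 3.51 times the FPKM of *Abcg1* in WT and at 3.94, 3.92 and 3.62 times in KO. These ratios overlapped, with a mean log2 difference of -0.12 (p = 0.4 in the exact two-sided permutation test, 0.4 after adjustment). The difference rested on single libraries, with -0.25 without WT replicate 3 (exact p = 0.1, the smallest that 2 libraries against 3 can give), -0.050 without WT replicate 2 and -0.075 without WT replicate 1, so whether the exporters fell unequally cannot be read from these libraries. *Abca1* was the second most abundant of the 10 transcripts in WT and the third in KO.

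In both exporters replicate 3 gave the lowest value of its group. They have the longest transcripts of the 10 genes, with 10262 annotated bases for *Abca1* and 5832 for *Abcg1*, and long transcripts as a class were lower in replicate 3. Over the 2533 tested genes with a longest transcript above 5 kb, the median of replicate 3 minus the mean of replicates 1 and 2 was -0.34 in WT and -0.17 in KO on the log2(FPKM + 0.5) scale. It was 0.23 and 0.08 over the 4136 genes of up to 2 kb. *Abca1* deviated by -0.71 in WT and -0.41 in KO, and *Abcg1* by -0.33 and -0.28. The part of length in these deviations was not tested. Between the groups the length classes did not part in this way, with median log2 fold changes of 0.18, 0.18 and 0.22 from the shortest to the longest class. With replicate 3 of both groups left out, a choice made after the data were seen, the log2 fold change of *Abca1* was -1.28 (adjusted p = 0.000194 from limma), and *Nr1h3* passed with -0.47 (adjusted p = 0.0264).

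**Figure D2:**
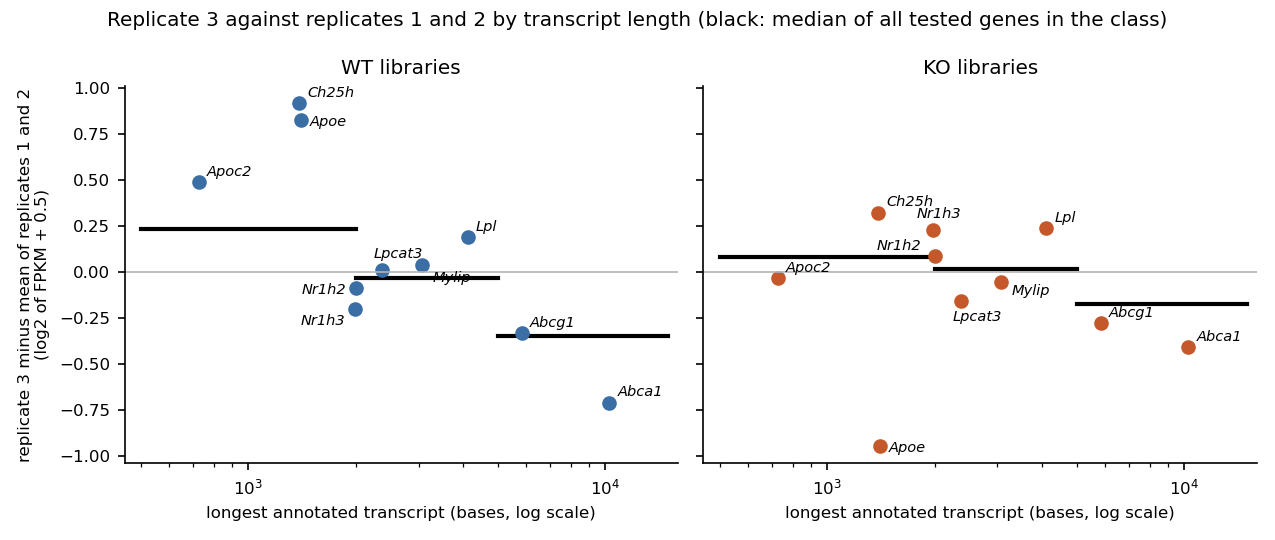
Difference between replicate 3 and the mean of replicates 1 and 2 (log2 of FPKM + 0.5) for the 10 LXR genes against the length of the longest annotated transcript (bases, log axis), in WT (left) and KO (right); black lines are medians of all tested genes up to 2 kb, from 2 to 5 kb and over 5 kb. *Abca1* and *Abcg1* lie below 0 in both groups, with -0.71 and -0.33 in WT, whereas *Apoe* lies at 0.83 in WT and at -0.95 in KO.

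The apolipoproteins and lipoprotein lipase did not move together. *Apoe* (ENSMUSG00000002985, chr7:19696109-19699188, minus strand), the main apolipoprotein secreted by macrophages and an acceptor for exported cholesterol, was by far the most abundant of the 10, with 1975, 864 and 2320 FPKM in WT and 2959, 1695 and 1162 FPKM in KO. The libraries of the groups were fully mixed, and the highest and lowest libraries of one group differed 2.69-fold in WT and 2.55-fold in KO. Its spread within groups (SD 0.72 on the log2 scale) was larger than that of 98.1% of the tested genes. The log2 fold change of 0.19 had a 95% interval from -0.91 to 1.28 (adjusted p = 0.780 from limma), wide enough to hold a fall as well as a rise. The sign turned when a single library was left out, to -0.25 without WT replicate 2 and to -0.17 without KO replicate 1. *Apoe* was ranked 16 among the tested genes by mean FPKM in WT and 13 in KO, and in single libraries it made up between 0.286% and 0.958% of the FPKM sum.

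*Apoc2* (ENSMUSG00000002992, chr7:19671579-19677941, minus strand), the obligate cofactor of lipoprotein lipase, lies in the same gene cluster as *Apoe*. It had 38.0, 41.0 and 55.5 FPKM in WT and 17.5, 16.8 and 16.7 FPKM in KO, so that each KO library was below each WT library. Its log2 fold change of -1.36, SE 0.15, was the lowest of the 10 genes (95% interval from -1.70 to -1.01, adjusted p = 0.000594 from limma), with 2.64-fold more in WT by mean FPKM. *Apoc2* stood at 0.0192, 0.0475 and 0.0239 of the FPKM of *Apoe* in WT and at 0.00591, 0.00989 and 0.0144 in KO, a mean log2 difference of -1.57 (p = 0.1 in the exact two-sided permutation test, 0.133 after adjustment). The predicted gene *Gm44805* overlaps *Apoc2* on the same strand and had at most 0.737 FPKM. The neighbours of the cluster were nearly silent: *Apoc1* had 0.281 to 0.975 FPKM over the 6 libraries and *Apoc4* at most 0.0820 FPKM.

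*Lpl* (ENSMUSG00000015568, chr8:68880491-68907448, plus strand), the enzyme that hydrolyses the triglycerides of lipoproteins and an LXR target in macrophages, was the one gene of the 10 that rose. It had 68.3, 68.1 and 77.9 FPKM in WT and 233.8, 247.5 and 284.3 FPKM in KO. The groups were far apart, with means of 71.4 ± 5.63 and 255 ± 26.1 FPKM, 3.57-fold higher in KO. The log2 fold change of 1.83, SE 0.11 (95% interval from 1.58 to 2.08, adjusted p = 3.95e-05 from limma), was above that of 99.0% of the tested genes, and its rank by mean FPKM went from 602 to 130. The cofactor and the enzyme parted within every library: the FPKM of *Apoc2* was 0.556, 0.602 and 0.712 of that of *Lpl* in WT and 0.0748, 0.0677 and 0.0588 of it in KO. The mean log2 difference of this ratio was -3.22 (p = 0.1 in the exact two-sided permutation test, 0.133 after adjustment), the largest of the 4 ratios.

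**Figure D3:**
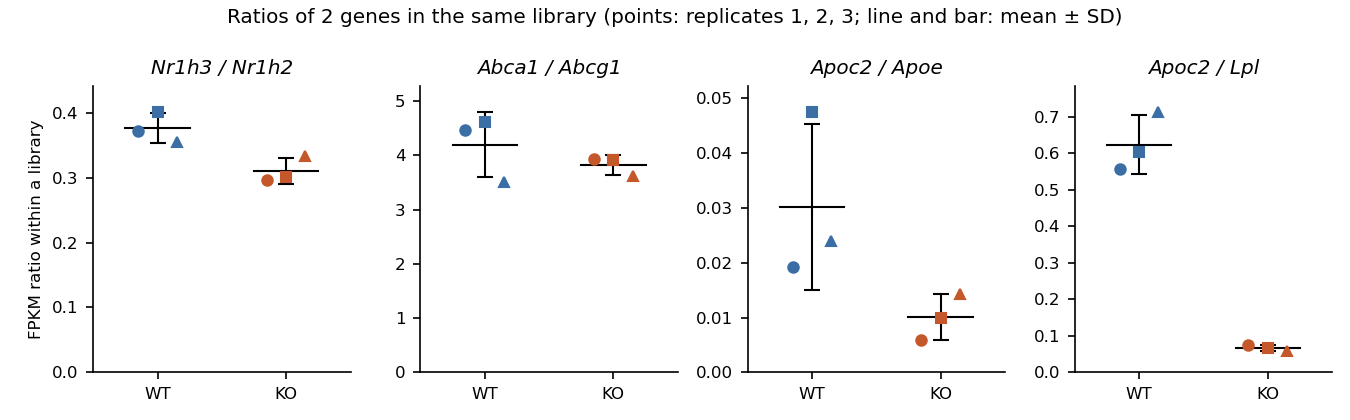
Ratios of the FPKM values of a pair of LXR genes in the same library (vertical axes from 0, one scale per ratio) for WT and KO; circles, squares and triangles are replicates 1, 2 and 3, with the mean and SD. The ratio of *Apoc2* to *Lpl* lies between 0.556 and 0.712 in WT and between 0.0588 and 0.0748 in KO, whereas the ratio of *Abca1* to *Abcg1* overlaps between the groups.

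The remaining targets act on receptors, membranes and ligand supply. *Mylip* (ENSMUSG00000038175, chr13:45389742-45412022, plus strand) encodes the ubiquitin ligase IDOL, which sends lipoprotein receptors to the lysosome. It had 24.7, 24.7 and 25.3 FPKM in WT and 18.5, 18.0 and 17.6 FPKM in KO. The KO values lay 27.6% below the WT values by mean, the smallest of the 4 falls, and the libraries of each group were tightly grouped, with a spread larger than in only 0.658% of the tested genes. The log2 fold change was -0.46, SE 0.07 (95% interval from -0.63 to -0.28, adjusted p = 0.00329 from limma). *Lpcat3* (ENSMUSG00000004270, chr6:124663027-124704418, plus strand), which places polyunsaturated chains into phospholipids, had 13.0, 12.0 and 12.6 FPKM in WT and 13.0, 11.7 and 11.0 FPKM in KO. The groups overlapped, and the log2 fold change of -0.07 had a 95% interval from -0.29 to 0.14 (adjusted p = 0.562 from limma). *Emg1* overlaps *Lpcat3* on the other strand with up to 10.9 FPKM, and no strand setting is stated, so reads of the pair may be mixed.

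*Ch25h* (ENSMUSG00000050370, chr19:34473778-34475164, minus strand), a gene of a single exon whose enzyme makes the oxysterol 25-hydroxycholesterol and which interferon also raises, was the lowest of the 10. It had 3.22, 2.09 and 5.36 FPKM in WT and 1.90, 1.90 and 2.50 FPKM in KO. The groups overlapped through WT replicate 2, and the log2 fold change of -0.57, SE 0.29, did not pass (95% interval from -1.26 to 0.12, adjusted p = 0.167 from limma). Its size rested on single WT libraries: without WT replicate 2 it passed with -0.85 (adjusted p = 0.0396), and without WT replicate 3 it was -0.26 (adjusted p = 0.321). In WT replicate 3 it stood 0.92 above the other WT libraries on the log2 scale.

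By mean FPKM the order in WT was *Apoe*, *Abca1*, *Lpl*, *Apoc2*, *Mylip*, *Abcg1*, *Nr1h2*, *Lpcat3*, *Nr1h3* and *Ch25h*. In KO it was *Apoe*, *Lpl*, *Abca1*, *Nr1h2*, *Mylip*, *Apoc2*, *Lpcat3*, *Abcg1*, *Nr1h3* and *Ch25h*. In WT *Lpl* passed *Abca1* in replicate 3, with 77.9 against 64.9 FPKM, and the values of *Abcg1* and *Nr1h2* overlapped, with 18.5 to 23.8 and 19.7 to 22.2 FPKM. In KO the neighbours *Nr1h2*, *Mylip* and *Apoc2* lay close together, from 16.7 to 20.3 FPKM, with those of *Nr1h2* and *Mylip* overlapping. *Lpl* stood below *Abca1* by mean in WT and above it in all 3 KO libraries.

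**Figure D4:**
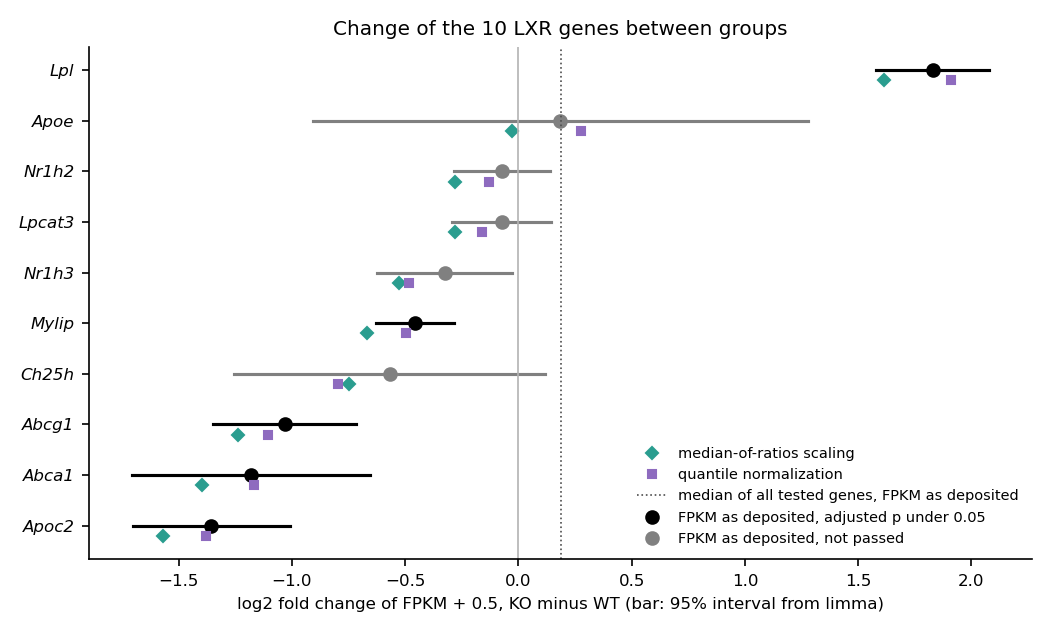
Log2 fold change of each LXR gene, KO minus WT on the log2(FPKM + 0.5) scale, with its 95% interval from limma (circles; black for an adjusted p-value under 0.05, grey otherwise) and the value after median-of-ratios scaling (diamonds) and quantile normalization (squares). The dotted line is the median of all tested genes, 0.19; *Lpl* at 1.83 is the one called rise, and *Apoc2*, *Abca1*, *Abcg1* and *Mylip* are the called falls from -1.36 to -0.46.

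The scaling between libraries changed the balance of all calls, while the members called above kept theirs. Their values did shift: median-of-ratios scaling moved *Lpl* from 1.83 to 1.61 and *Abcg1* from -1.03 to -1.24. *Nr1h3* was called lower in addition under median-of-ratios, upper-quartile and quantile scaling. Of all called genes 72.0% were higher in KO with FPKM as deposited (3619 higher, 1408 lower), 55.7% after quantile normalization (2426 higher, 1928 lower) and 49.3% after median-of-ratios scaling (2156 higher, 2215 lower), where the median of all genes was -0.00046 in place of 0.19. *Lpl* was called higher and *Abca1*, *Abcg1*, *Apoc2* and *Mylip* were called lower in each of the 18 other ways of fitting the data. *Nr1h2* and *Lpcat3* kept a negative value that passed in 0 of the 18. After median-of-ratios scaling they had -0.28 each and lay just over the threshold (adjusted p = 0.0514 and 0.0534 from limma).

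The genes around these members were described by 8 lists from general knowledge, 128 genes in all, of which 106 rows were tested. Over these lists 33 were higher and 14 lower in KO and 59 did not pass, with a median log2 fold change of 0.22, near that of all genes. These counts and those of the single lists are to be read against the 27.1% of all tested genes that were called higher and the 10.5% called lower, to which the shares over the lists together came close. No test was made of the lists, and the values of named members are from the same limma model.

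Among LXR partners and coregulators, 4 of 17 were higher and 0 lower (median 0.22). *Rxra*, a retinoid X receptor that partners both LXRs, had 25.3, 26.3 and 17.2 FPKM in WT and 26.4, 20.4 and 22.0 FPKM in KO, a log2 fold change of 0.01 with adjusted p = 0.959 whose sign changed with the scaling and without WT replicate 3 or KO replicate 1. *Rxrb*, a second retinoid X receptor, rose from 4.85 ± 0.619 to 9.65 ± 2.01 FPKM (log2 fold change 0.91, adjusted p = 0.00648), and *Tbl1x*, a subunit of corepressor complexes, rose from 6.83 ± 1.13 to 12.7 ± 1.86 FPKM (0.84, adjusted p = 0.00639). The coactivator *Ncoa2* had a log2 fold change of 1.28 (adjusted p = 0.0455), a call lost in 10 of 17 other fits. With median-of-ratios scaling 2 genes of this list were higher and 1 was lower, 2 were higher without KO replicate 1 or without KO replicate 2, and 7 were higher with replicate 3 of both groups left out.

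Of 17 tested among 20 other LXR targets, 8 were higher and 2 lower in KO, with a median of 0.30, against 27.1% and 10.5% of all tested genes. *Acsl3*, an acyl-CoA synthetase, rose from 2.13 ± 0.292 to 5.66 ± 0.486 FPKM (log2 fold change 1.23, adjusted p = 0.000410). *Fads1*, a desaturase of polyunsaturated fatty acids, rose from 11.8 ± 1.70 to 24.6 ± 0.488 FPKM (1.04, adjusted p = 0.000696), and *Cd5l*, a secreted scavenger receptor protein of macrophages, from 14.1 ± 1.05 to 29.0 ± 0.705 FPKM (1.02, adjusted p = 0.000216). *Arl4c*, a small GTPase, fell from 60.8 ± 1.09 to 38.6 ± 2.07 FPKM (-0.65, adjusted p = 0.000887). *Smpdl3a*, a phosphodiesterase related to sphingomyelinase, had -0.28 (adjusted p = 0.0432), a call lost in 7 of 18 other fits. *Srebf1*, the lipogenic transcription factor that LXRs raise, had 11.7, 10.7 and 10.6 FPKM in WT and 10.9, 11.7 and 12.1 FPKM in KO, with overlapping groups (0.07, adjusted p = 0.574). With median-of-ratios scaling, without KO replicate 1 or without KO replicate 2, 5 targets in place of 8 were higher, and *Arl4c* alone was lower without WT replicate 1, WT replicate 2 or any single KO library.

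The list of oxysterol synthesis and turnover held the largest rise of the 8 lists, that of *Cyp27a1*. Of 7 tested among 12, 4 were higher and 1 lower, with a median of 0.74. *Cyp27a1*, the mitochondrial sterol 27-hydroxylase that makes the LXR ligand 27-hydroxycholesterol, had 1.66, 2.10 and 1.84 FPKM in WT and 16.4, 16.7 and 17.6 FPKM in KO (log2 fold change 2.88, adjusted p = 4.99e-06). *Gpr183*, the receptor for dihydroxylated oxysterols made through *Ch25h*, rose from 1.39 ± 0.181 to 9.40 ± 0.773 FPKM (2.39, adjusted p = 1.89e-05). *Hsd3b7*, an enzyme that breaks down oxysterols towards bile acids, fell from 21.0 ± 1.60 to 13.5 ± 0.361 FPKM (-0.62, adjusted p = 0.00194). Of the enzymes that make LXR ligands, *Cyp27a1* was higher in KO while *Ch25h* did not pass with -0.57, and sterols themselves were not measured.

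Of 22 tested genes of cholesterol trafficking and efflux among 26, 7 were higher and 4 lower, with a median of 0.07, and 4 were higher with median-of-ratios scaling, without KO replicate 1 or without KO replicate 2. *Stard4*, a cytosolic sterol carrier, rose from 2.35 ± 0.284 to 7.56 ± 0.206 FPKM (log2 fold change 1.51, adjusted p = 0.000102). *Scarb1*, the HDL receptor, rose from 4.26 ± 0.550 to 9.88 ± 0.120 FPKM (1.13, adjusted p = 0.000375), and *Lipa*, the lysosomal cholesteryl ester hydrolase, from 147.8 ± 12.9 to 237 ± 11.3 FPKM (0.68, adjusted p = 0.00182). In the other direction *Npc2*, which hands cholesterol over inside the lysosome, fell from 252.8 ± 27.5 to 141.2 ± 5.63 FPKM (-0.83, adjusted p = 0.000941), the lipid droplet protein *Plin2* from 319.3 ± 17.9 to 212.3 ± 17.5 FPKM (-0.59, adjusted p = 0.00319), and the late endosomal sterol protein *Stard3* from 23.1 ± 2.57 to 15.8 ± 0.422 FPKM (-0.53, adjusted p = 0.00720).

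Of the 12 apoE and lipoprotein receptors and their partners, all tested, 5 were higher and 3 lower (median 0.42). *Sorl1* rose from 1.16 ± 0.319 to 5.53 ± 1.21 FPKM (log2 fold change 1.86, adjusted p = 0.000751), *Lrp5* from 2.92 ± 1.09 to 9.02 ± 1.28 FPKM (1.52, adjusted p = 0.00436) and *Lrp6* from 4.66 ± 1.26 to 12.5 ± 1.02 FPKM (1.37, adjusted p = 0.00200). The receptor chaperone *Lrpap1* fell from 82.5 ± 0.679 to 31.3 ± 0.382 FPKM (-1.38, adjusted p = 2.04e-05), and the scavenger receptors *Msr1* (-0.93, adjusted p = 0.000516) and *Cd36* (-0.46, adjusted p = 0.00785) fell as well, the latter with adjusted p = 0.0548 when no filter on low values was set. Of receptors that IDOL degrades, singled out after their values were seen, *Vldlr* was higher at a low level (0.557 ± 0.119 against 1.05 ± 0.0944 FPKM, 0.56, adjusted p = 0.0228) and *Lrp8* had -0.65 (adjusted p = 0.171).

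Of the lipoprotein lipase machinery, 8 of 17 genes were tested, 1 was higher and 1 lower, with a median of 0.04. *Sort1*, a sorting receptor that binds the lipase, rose from 7.10 ± 1.73 to 23.2 ± 2.77 FPKM (log2 fold change 1.66, adjusted p = 0.000758). *Sdc1*, a heparan sulfate proteoglycan of the cell surface, fell from 113.7 ± 2.82 to 36.9 ± 0.777 FPKM (-1.61, adjusted p = 1.20e-05). The lipase maturation factor *Lmf1* and the lipase inhibitor *Angptl4*, named after their values were seen, did not pass (0.04, adjusted p = 0.791, and -0.21, adjusted p = 0.101), and *Gpihbp1*, which carries the lipase on capillary endothelium, was listed at 0 in all 6 libraries. With median-of-ratios scaling 2 genes of this list were lower.

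Among the relatives of *Lpcat3* in phospholipid acylation and deacylation, 4 of 14 were higher and 3 lower (median 0.25). *Pla2g15*, a lysosomal phospholipase, rose from 34.0 ± 1.82 to 88.0 ± 5.43 FPKM (log2 fold change 1.36, adjusted p = 5.74e-05), *Lpcat2* by 0.74 (adjusted p = 0.000747) and *Agpat3* by 0.72 (adjusted p = 0.000975). *Pla2g4a*, the cytosolic phospholipase that frees arachidonic acid, fell from 10.3 ± 0.359 to 4.53 ± 0.294 FPKM (-1.11, adjusted p = 0.000183). The lower calls of *Agpat5* (-0.45, adjusted p = 0.0386) and *Agpat4* (-0.40, adjusted p = 0.0341) were lost in 6 of 17 and 4 of 18 other fits. With median-of-ratios scaling, or with replicate 3 of both groups left out, 5 of this list were lower, and 1 was lower without WT replicate 2, KO replicate 1 or KO replicate 2. Of 10 rows for ubiquitin-conjugating and other partners of *Mylip*, 1 was higher and 0 lower (median 0.31), namely 1 of the 2 identifiers of *Myl12b* (0.60, adjusted p = 0.00974), which did not pass after median-of-ratios scaling (adjusted p = 0.0648). With that scaling 0 of these rows were higher and 1 was lower. Without WT replicate 3, 2 were higher and 1 lower, without KO replicate 3, 2 were higher, and with replicate 3 of both groups left out 4 were higher and 1 lower.

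**Figure D5:**
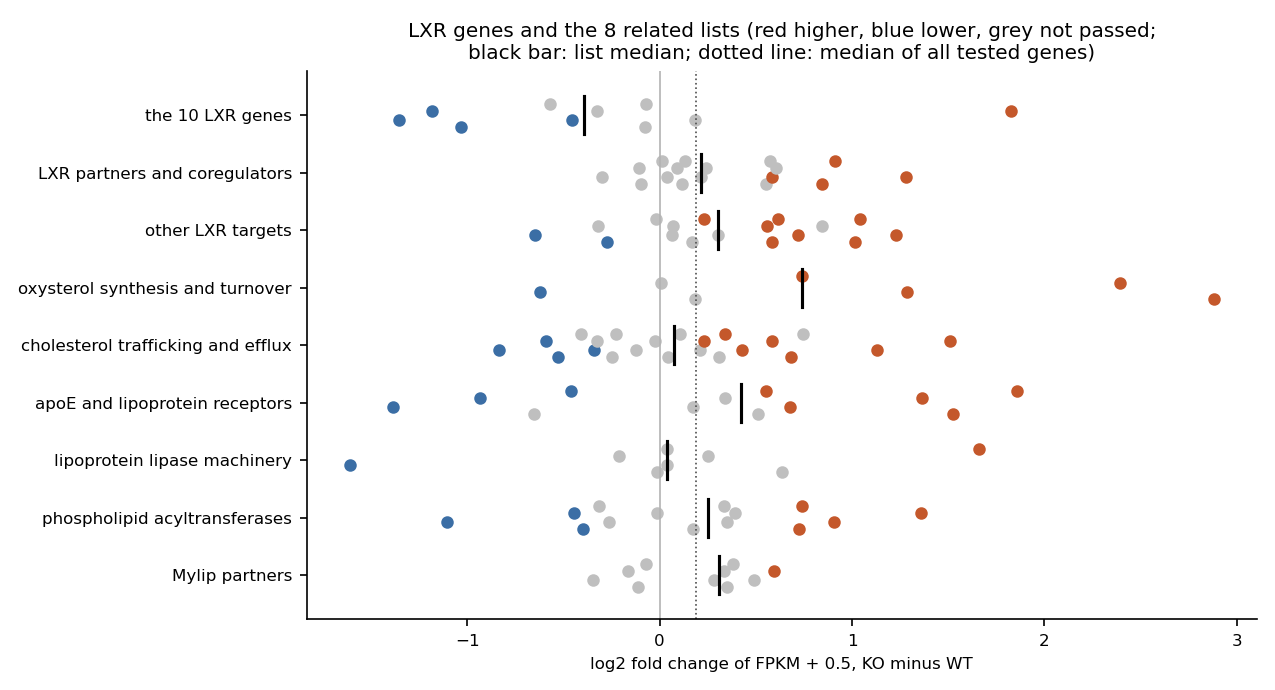
Log2 fold change, KO minus WT on the log2(FPKM + 0.5) scale, of every tested gene among the 10 LXR genes and the 8 related lists; red points were called higher, blue lower, grey did not pass, black bars are list medians and the dotted line is the median of all tested genes. The median of the 10 LXR genes lies at -0.39 and those of the 8 lists lie between 0.04 and 0.74.

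Other features of these libraries moved with the groups. Macrophage markers summed to between 9792 and 12100 FPKM in WT and between 11530 and 12810 FPKM in KO, with 3 of 12 higher and 2 lower, so that the markers of the labelled cell type were present in all libraries. Of 20 neutrophil markers 12 were tested, 10 of them were higher and 1 lower in KO, and their sum was 202.6 to 263.8 FPKM in WT and 557.8 to 573.0 FPKM in KO, led by *S100a9* with 82.4, 75.9 and 113.1 against 243.8, 221.4 and 238.1 FPKM. The defining marker *Ly6g* was at 0 in all WT libraries and had 0.660, 0.547 and 0.403 FPKM in KO. *Cd177* had 0.544, 0.309 and 0.521 FPKM in WT and 1.79, 1.84 and 2.28 FPKM in KO, the reverse of the neutrophil genotypes. The sequenced macrophages were WT in both groups, and whether these reads came from them or from carried-over neutrophils was not tested. *Cd177* reads from carried-over neutrophils would bear on the group labels, which set the direction of every change given here. The labels were used as given and were not tested. Interferon response genes were lower in KO in 20 of 20 cases, with sums of 1587 to 1830 FPKM in WT and 173.2 to 185.5 FPKM in KO. Fibroblast and endothelial markers were present in all libraries (404.7 to 575.8 FPKM in WT, 483.6 to 542.6 FPKM in KO), led by *Col1a1*, with 0 of 7 tested higher and 3 lower in KO. B cell markers rose from at most 2.51 to between 14.9 and 17.1 FPKM, in 3 of 3 tested, with *Ms4a1* and *Cd79a* at or near 0 throughout. The sums were 2.03 to 2.46 against 5.70 to 7.33 FPKM for T and NK cell markers. The 1 tested, *Cd4*, was higher (1.76 against 5.56 FPKM by mean), with *Cd3e*, *Cd3d* and *Cd3g* at or near 0 throughout. For dendritic cell markers the sums were 0.980 to 1.82 against 1.66 to 1.79 FPKM, and the 1 tested, *Batf3*, was higher. Among those below the filter, *Clec9a* and *Xcr1* had lower means in KO and *Zbtb46* a higher one. Spinal cord cell markers summed to 16.7 to 19.2 against 22.7 to 23.9 FPKM (2 of 4 tested higher). The sums were led by *Tubb3*, with means of 11.25 in WT and 14.51 FPKM in KO (called higher, adjusted p = 0.0242 from limma). *Mbp* came next, with 5.285 and 6.346 FPKM, and did not pass. *Aldh1l1* was called higher at a low level, with 0.506 and 1.53 FPKM (adjusted p = 0.00262 from limma), while *Gfap*, *Aqp4*, *Mog* and *Nefl* were at or near 0. The part of other cells and of the interferon genes in the differences of the LXR genes was not tested, and in bulk RNA fewer cells of a type cannot be told apart from less RNA per cell.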

How the data were processed

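RNA-seq of sorted macrophages was available for 6 libraries, 3 per group, as FPKM values that the authors deposited for 55335 Ensembl mouse genes. The authors' processing notes name fastp 0.17.1, HISAT2 2.1.0, DESeq2 1.18.1 and R 3.4.3; the program that made the FPKM values, the genome build, the annotation and the strand setting are not given in the sources used here. The labels and the study's methods name different extraction reagents, library kits and sequencers. FPKM values are no counts, so the count test of the study was not repeated. The spacing of low values implied 17600000 to 20300000 fragments per library. Only 37.3% to 40.5% of these values came out whole at that spacing (tolerance 0.1), against 20% by chance, so read counts were not recovered. Libraries correlated at 0.967 to 0.985 within WT, 0.977 to 0.984 within KO and 0.905 to 0.917 between groups.

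Gene names and positions came from GENCODE M21 (GRCm38), which matched 99.7% of identifiers. Genes that averaged 0.5 FPKM or more were tested with limma 3.58.1 in R 4.3.3 (linear model on group, log2(FPKM + 0.5), moderated variance with a trend, two-sided), adjusted by Benjamini-Hochberg over all 13367 genes, with calls at an adjusted p-value under 0.05. The model was run on simulated data with independent noise in each gene, which do not cover effects shared by many genes of a library. Ratios of 2 genes within a library were compared with the exact permutation test, which cannot give a p-value under 0.1 here. Promoter windows were from RefSeq. The members and lists were chosen with earlier results of these data known. Text names all 10 members, up to 3 higher and 3 lower genes per list by size of change with a mean of at least 1 FPKM, *Cd177*, *Srebf1*, *Rxra* and *Cyp27a1*, and leading or defining markers; a few genes under this rule are not reported here. Alternatives covered the pseudocount, the filter, the scaling, the variance estimate, the study's threshold, a replicate block and each library left out. Python 3.11.15 was used for summaries.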

Additional observations from a re-analysis of the deposited data

How the results depend on the processing

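The calls of *Lpl* (higher) and of *Abca1*, *Abcg1*, *Apoc2* and *Mylip* (lower) were made in all 18 other fits, with log2 fold changes from 1.61 to 1.91, from -1.42 to -1.04, from -1.24 to -0.94, from -1.57 to -1.18 and from -0.67 to -0.42. The number of members called lower was 4 and became 3 at the study's threshold and 5 under median-of-ratios, upper-quartile and quantile scaling, without WT replicate 2, without WT replicate 3 and with replicate 3 of both groups left out. *Nr1h3* was the added call with -0.53, -0.41 (adjusted p = 0.0464) and -0.48 (adjusted p = 0.0245) under these scalings, and *Ch25h* without WT replicate 2. Values near 0 changed sign: *Apoe* had -0.030 with median-of-ratios scaling and -0.25 to 0.50 with single libraries left out; *Srebf1* had -0.14, -0.017 and -0.025 with median-of-ratios, upper-quartile and quantile scaling; *Rxra* had -0.20, -0.072 and -0.022 with the same scalings, -0.18 to 0.12 with single libraries left out and -0.15 with replicate 3 of both groups left out. The cause was not tested. Calls over the 8 lists were 47, 17 at the study's threshold, 35 to 48 with single libraries left out, and 65 with replicate 3 of both groups left out, a choice made after the data were seen.

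The replicate numbers did not pair replicates 1 and 2 of the groups, whereas the replicate 3 libraries correlated weakly with each other. Deviations from the group mean correlated at 0.116, 0.036 and 0.264 for replicates 1 to 3. WT replicate 1 correlated better with KO replicate 2 (0.160). Replicate 3 of either group correlated at -0.23 to -0.13 with replicates 1 and 2 of the other group. Deviations cancel out within a group, so these negative values follow from the positive one and add no separate support. With the replicate block 5934 in place of 5027 genes and 63 list calls were made, and 1 member was higher and 4 were lower. Scaling changed the balance of all called genes, with 72.0% higher as deposited and 63.6% after upper-quartile scaling. With 3 libraries a group the spread was widest for *Apoe* and *Ch25h*, whose intervals hold changes in both directions.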
